A study of Mus musculus with 16 samples.

Results

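The genes described here are the inhibitors of the cyclin-dependent kinases (CDKs) and the retinoblastoma family, 10 genes of the 20284 mouse genes that the array measured by a symbol. They were taken as every probe whose listed RefSeq transcript belonged to Cdkn1a, Cdkn1b, Cdkn1c, Cdkn2a, Cdkn2b, Cdkn2c, Cdkn2d, Rb1, Rbl1 or Rbl2, which gave 14 of 55681 probes. Expression was measured on 16 single-colour Agilent arrays in 8 groups of 2, and the series' design describes 2 independent experiments.

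The cultured cells were 32Dcl.3, an established mouse myeloid progenitor line that depends on growth factor, kept in medium conditioned by WEHI3B cells and collected 3 days after retroviral transduction by spinoculation. One group carried mouse Irf8 in the MSCV-IRES-hCD8t vector and mouse C/EBPalpha in the MSCV-IRES-puro vector (both factors), one carried C/EBPalpha with the empty CD8t vector, one carried IRF8 with the empty puro vector, and one carried both vectors empty. All 4 groups therefore carried a CD8t and a puro vector. The sorted cells came from bone marrow of Irf8-deficient (Irf8KO) or wild-type (WT) mice and were untransduced: monocyte-dendritic cell progenitors (MDPs) of Irf8KO and of WT mice, and common monocyte progenitors (cMoPs) of Irf8KO and of WT mice. Age, sex, strain and any pooling of the mice are not given in the sources used here, so p-values measure the spread between these arrays. With 2 arrays a group, precision is limited throughout.

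CDK inhibitors stop a dividing cell in the G1 phase. Members of the CIP/KIP family (p21, p27 and p57, from Cdkn1a, Cdkn1b and Cdkn1c) bind cyclin-CDK complexes of several kinds, and members of the INK4 family (from Cdkn2a, Cdkn2b, Cdkn2c and Cdkn2d) bind the kinases that partner D-type cyclins. While those kinases are inactive, the pocket proteins pRB, p107 and p130 (from Rb1, Rbl1 and Rbl2) hold E2F factors and keep genes of DNA replication and mitosis off. In myeloid cells these genes act where progenitors stop dividing and mature, and C/EBPalpha and IRF8 are transcription factors that direct such progenitors to granulocytes and monocytes.

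RefSeq start-site windows on GRCm38.p6, each from 250 bases before a start site to 50 bases after it, were at hand for 8 of the 10 genes, 11 windows in all. Shown are the windows of the genes that moved most when both factors were expressed: both start sites of Cdkn1a, the start site of Cdkn1b, and that of Rbl1. Capitals mark matches to the motifs searched on both strands, and all other bases are in lower case.
Cdkn1a, chr17:29090729-29091028, + strand: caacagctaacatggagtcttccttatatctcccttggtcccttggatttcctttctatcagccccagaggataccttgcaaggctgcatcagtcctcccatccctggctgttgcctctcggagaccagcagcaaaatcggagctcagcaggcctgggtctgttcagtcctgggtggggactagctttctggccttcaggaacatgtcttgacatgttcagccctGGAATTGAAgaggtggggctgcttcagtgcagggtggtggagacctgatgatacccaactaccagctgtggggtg
Cdkn1a, chr17:29093519-29093818, + strand: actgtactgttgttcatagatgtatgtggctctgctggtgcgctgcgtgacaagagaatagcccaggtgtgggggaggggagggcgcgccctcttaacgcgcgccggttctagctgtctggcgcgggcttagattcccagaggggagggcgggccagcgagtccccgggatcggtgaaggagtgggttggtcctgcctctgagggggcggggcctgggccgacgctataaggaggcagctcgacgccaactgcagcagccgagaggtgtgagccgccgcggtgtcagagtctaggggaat
Cdkn1b, chr6:134920151-134920450, + strand: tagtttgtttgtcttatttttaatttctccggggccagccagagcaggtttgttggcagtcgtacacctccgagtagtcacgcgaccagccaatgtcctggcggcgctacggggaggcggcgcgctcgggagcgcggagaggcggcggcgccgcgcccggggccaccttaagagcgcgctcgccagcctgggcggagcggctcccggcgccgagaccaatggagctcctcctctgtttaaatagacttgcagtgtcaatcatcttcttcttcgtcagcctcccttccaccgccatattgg
Rbl1, chr2:157204485-157204784, - strand: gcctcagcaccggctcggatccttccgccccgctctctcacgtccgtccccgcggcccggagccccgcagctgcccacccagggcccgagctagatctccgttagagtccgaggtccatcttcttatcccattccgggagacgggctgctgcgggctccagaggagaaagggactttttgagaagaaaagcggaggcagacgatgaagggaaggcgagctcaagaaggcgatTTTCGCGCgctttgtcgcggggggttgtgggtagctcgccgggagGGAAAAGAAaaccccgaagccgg

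The motifs were E2F sites (TTTGGCGC, TTTCCCGC and TTTCGCGC), C/EBP sites (TTGCGCAA and the looser TTGCNNAA), a composite of an ETS and an IRF site (GGAANNGAA), an interferon response element (GAAANNGAA) and the cell cycle homology region (TTTGAA). The Rbl1 window held TTTCGCGC with its first base 18 bases before the start site and GGAANNGAA 27 bases after it. The earlier Cdkn1a window held GGAANNGAA 25 bases before its start site, and the other Cdkn1a window and the Cdkn1b window held none of these letters. Of 32851 mouse windows of the same length, 1.85% held any of the E2F sites, 8.24% the ETS-IRF composite, 8.56% the interferon response element, 10.8% a C/EBP site and 17.9% TTTGAA. Among the windows not shown, one of Cdkn2a held TTTCCCGC, those of Cdkn2b and Rbl2 each held TTTGAA, one of Cdkn2c held TTGCNNAA, and that of Cdkn2d held none. A match is a description of the letters, and no binding was measured.

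Levels below are log2 of the processed signal after division by the array's 75th percentile, so that 0 is the 75th percentile of an array's probes. Changes are differences of these levels with the standard error (SE). "Rose" and "fell" are used where the adjusted p of limma, over all genes kept in a comparison, was under 0.05. A gene was kept in a system where some group had its probe well above background on both arrays. This kept 7 of the 10 genes in 32Dcl.3 cells, all but Cdkn1c, Cdkn2a and Cdkn2b, and 8 in the progenitors, all but Cdkn2a and Cdkn2b.

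The arrays of a group correlated at 0.995 to 0.998. The 75th percentile was 147.3 to 460.1 on 32Dcl.3 arrays, 67.8 to 81.0 on MDP arrays and 455.6 to 567.9 on cMoP arrays. Separate slides held the MDPs, the cMoPs and the cultured line, and every contrast was taken within a slide. MDP genotype and IRF8 expression ran along slide columns, while cMoP genotype and C/EBPalpha expression ran along slide rows, so position and group cannot be told apart. The Irf8 and Cebpa probes were not well above background on any 32Dcl.3 array, those of transduced cells included, so the array did not check the transgenes. Irf8 was at 7.44 and 7.43 in Irf8KO MDPs against 8.02 and 7.96 in WT MDPs, and at 5.83 and 5.87 in Irf8KO cMoPs against 7.33 and 7.34 in WT cMoPs, so the probe did not check the deletion. Of the 8 markers of 32Dcl.3 cells, Mpo, Elane, Prtn3, Csf3r and Csf2rb were well above background in all 4 groups of these cells, and Kit, Cebpa and Irf8 in none. All 8 markers of MDPs and cMoPs, Irf8 among them, were well above background in all 4 progenitor groups. Their levels still differed with the genotype. In Irf8KO MDPs 4 rose and 4 fell (-0.93 to 0.92), where 22.8% of all genes rose and 28.6% fell. In Irf8KO cMoPs 2 rose and 5 fell (-2.70 to 1.07), where 22.9% rose and 31.1% fell.

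Expression of C/EBPalpha and IRF8 together in 32Dcl.3 cells went with higher levels of Cdkn1a, Cdkn1b and Rb1 and lower levels of the measured INK4 genes and Rbl1; for Rb1 the direction depended on the scaling. Of 7 kept genes, 3 rose (Cdkn1a, Cdkn1b and Rb1), 3 fell (Cdkn2c, Cdkn2d and Rbl1), and Rbl2 did not pass the test. Over all 13339 kept genes 84.8% changed in this comparison, 38% rising and 46.8% falling, so 6 of 7 is near the share of all genes. The median change was -0.21 over the 7 genes and -0.10 over all genes. In RNA from a whole culture, fewer cells that express a gene and less RNA per cell cannot be told apart.

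Cdkn1a encodes p21, an inhibitor that p53 and other factors induce. Its level was 6.38 and 6.38 with both factors, 4.62 and 4.64 with C/EBPalpha, 4.81 and 4.80 with IRF8, and 4.08 and 4.06 with empty vectors. The 4 groups did not overlap, with both factors highest and empty vectors lowest. Cdkn1a rose by 2.31 ± 0.03 (SE), 4.97-fold, with both factors (adjusted p = 3.66e-15), by 0.56 ± 0.03 with C/EBPalpha alone (adjusted p = 1.33e-09) and by 0.73 ± 0.03 with IRF8 alone (adjusted p = 6.99e-10). These comparisons share the empty vector arrays. Against the single factors it rose by 1.76 ± 0.03 over C/EBPalpha (adjusted p = 1.77e-13) and by 1.58 ± 0.03 over IRF8 (adjusted p = 1.14e-13).

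The rise of Cdkn1a is relative to the rest of the array. Its unscaled processed signal was 12823 and 12309 with both factors, 5362 and 5335 with C/EBPalpha, 10321 and 10242 with IRF8, and 7805 and 7413 with empty vectors. Before scaling it was thus lower with C/EBPalpha alone than with empty vectors. The 75th percentiles of the same arrays were 154 and 147 with both factors, 218 and 215 with C/EBPalpha, 367 and 369 with IRF8, and 460 and 445 with empty vectors. The median change of all genes was -0.10 with both factors and -0.14 with C/EBPalpha. With arrays scaled to their median it was -0.75 and -0.45, and Cdkn1a still rose there, by 1.66 and by 0.25.

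Cdkn1b encodes p27, which holds CDK complexes inactive in resting cells. Its level was 3.62 and 3.55 with both factors, 2.87 and 2.82 with C/EBPalpha, 2.62 and 2.59 with IRF8, and 1.72 and 1.73 with empty vectors. The groups did not overlap, and the gap between the single-factor groups was the smallest. Cdkn1b rose by 1.86 ± 0.04 with both factors (3.64-fold, adjusted p = 2.75e-13), by 1.12 ± 0.04 with C/EBPalpha (2.18-fold) and by 0.88 ± 0.04 with IRF8 (1.84-fold). It also rose with both factors over C/EBPalpha alone, by 0.74 ± 0.04, and over IRF8 alone, by 0.98 ± 0.04. With arrays scaled to their median these rises were smaller, at 0.39 and 0.29, and that against empty vectors was 1.21, all past the threshold. The rises of Cdkn1b are also relative to the rest of the array. Its mean unscaled signal was 1812 with both factors, 1557 with C/EBPalpha, 2239 with IRF8 and 1495 with empty vectors. Cdkn1c, which encodes p57, was not well above background on any of the 8 arrays of 32Dcl.3 cells.

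**Figure D1:**
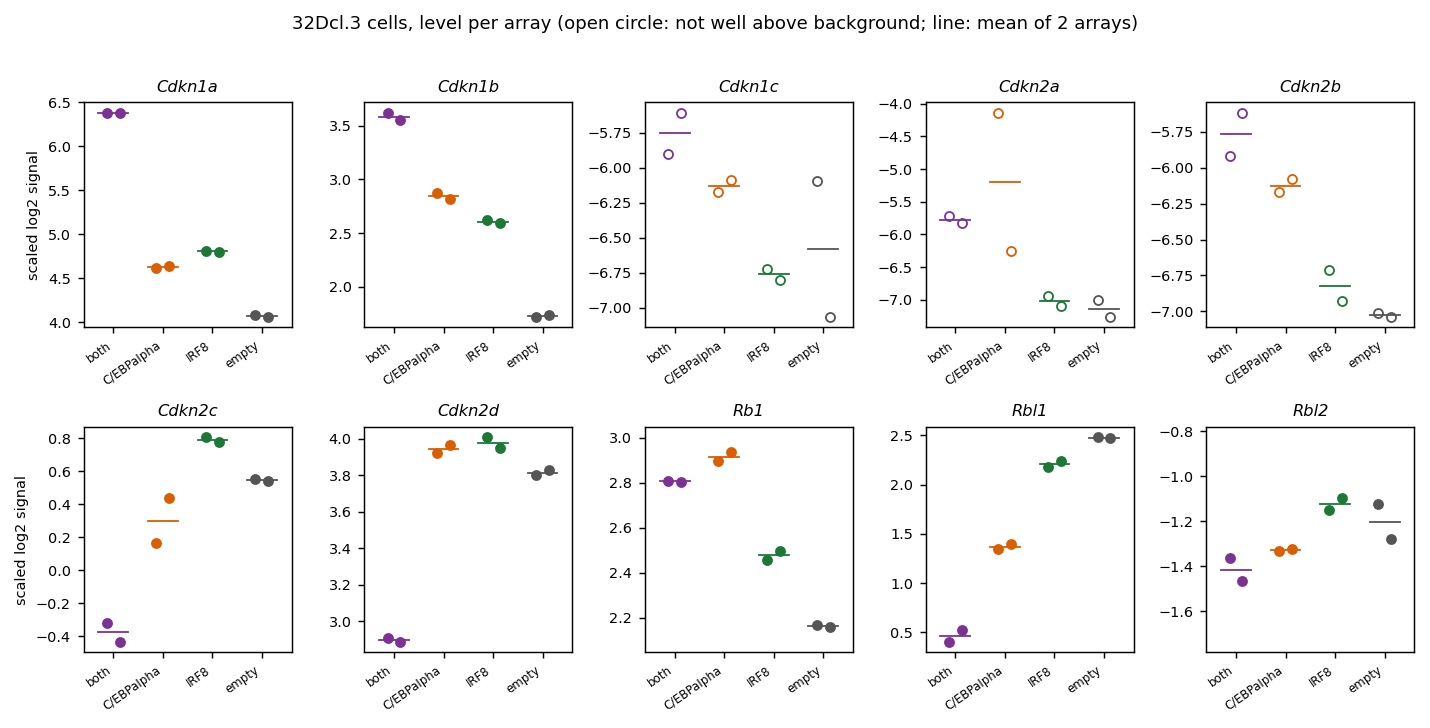
Level of each of the 10 genes on each array of 32Dcl.3 cells, as log2 of processed signal over the array's 75th percentile, for both factors, C/EBPalpha, IRF8 and empty vectors from left to right, with a scale of its own per gene. Filled circles are well above background, open circles are not, and lines are means of 2 arrays. Cdkn1a and Cdkn1b are highest with both factors, and Cdkn2c, Cdkn2d and Rbl1 are lowest there. The open circles of Cdkn1c, Cdkn2a and Cdkn2b lie at background, and their order among groups has no meaning.

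The INK4 genes split into a pair that was measured and a pair that was not. Cdkn2a, which encodes p16 and, from another reading frame, p19ARF in the mouse, had 2 probes, and neither was well above background on any of the 16 arrays. Cdkn2b, which encodes p15, had 2 probes, and neither was well above background on any 32Dcl.3 array. Cdkn2a and Cdkn2b were therefore not measured at a level that allows a comparison.

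Cdkn2d encodes p19INK4d, an inhibitor of the D-type cyclin kinases. Its level was 2.91 and 2.89 with both factors, 3.92 and 3.97 with C/EBPalpha, 4.01 and 3.95 with IRF8, and 3.80 and 3.83 with empty vectors. With both factors it lay below all other arrays, while each single-factor group lay above empty vectors by a small margin. Cdkn2d fell by 0.92 ± 0.03 with both factors (1.89-fold lower, adjusted p = 5.42e-11) and rose by 0.13 ± 0.03 with C/EBPalpha (adjusted p = 0.00356) and by 0.16 ± 0.03 with IRF8 (adjusted p = 0.00153). The rise with C/EBPalpha turned into a fall (-0.18, adjusted p = 0.00442) when arrays were scaled to their median.

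Cdkn2c encodes p18INK4c, an inhibitor of the same kinases. Its level was -0.32 and -0.43 with both factors, 0.16 and 0.44 with C/EBPalpha, 0.80 and 0.78 with IRF8, and 0.55 and 0.54 with empty vectors. The arrays with both factors were the lowest and those with IRF8 the highest, and the C/EBPalpha arrays differed from each other more than those of any other group did. Cdkn2c fell by 0.92 ± 0.08 with both factors (1.89-fold lower, adjusted p = 3.8e-07), by 0.67 ± 0.08 against C/EBPalpha alone and by 1.16 ± 0.08 against IRF8 alone. Its smaller changes with the single factors were -0.25 ± 0.08 with C/EBPalpha (adjusted p = 0.0152) and 0.24 ± 0.08 with IRF8 (adjusted p = 0.0284). With each array left out in turn, the C/EBPalpha change ran from -0.38 to -0.11 and the IRF8 change from 0.23 to 0.26. The C/EBPalpha change missed the threshold without either empty vector array (adjusted p = 0.0587 and 0.0513) and was -0.11 without C/EBPalpha array 1 (adjusted p = 0.186). The IRF8 change missed it without any 1 of the 4 arrays compared (adjusted p = 0.0895 to 0.128). Both also missed it with quantile normalization and without an intensity trend, and the C/EBPalpha change was -0.037 with the percentile over detected probes and -0.56 with arrays scaled to their median.

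Among the pocket proteins, Rb1 and Rbl1 moved in opposite directions. Rb1 encodes pRB, the retinoblastoma tumour suppressor. Its level was 2.81 and 2.80 with both factors, 2.90 and 2.94 with C/EBPalpha, 2.46 and 2.50 with IRF8, and 2.17 and 2.16 with empty vectors. C/EBPalpha alone thus gave the highest arrays, with both factors just under them, and empty vectors gave the lowest. Rb1 rose by 0.64 ± 0.03 with both factors (1.56-fold, adjusted p = 2.42e-09), by 0.75 ± 0.03 with C/EBPalpha (1.68-fold) and by 0.31 ± 0.03 with IRF8 (1.24-fold). These rises are relative to the rest of the array. Mean unscaled Rb1 signal was 1054 with both factors, 1634 with C/EBPalpha, 2049 with IRF8 and 2030 with empty vectors. Scaled to the array median, the change with both factors was -0.013 (adjusted p = 0.842). On that scale Rb1 rose by 0.44 with C/EBPalpha and by 0.35 with IRF8. Both factors against IRF8 alone gave a rise of 0.33 ± 0.03, and -0.37 (adjusted p = 5.8e-06) on that scale. Both factors against C/EBPalpha alone gave -0.11 ± 0.03 (adjusted p = 0.0126), and this was -0.091 without C/EBPalpha array 2 (adjusted p = 0.0801). It was -0.46 with arrays scaled to their median, and missed the threshold with the percentile over detected probes (-0.0060), with quantile normalization (-0.027) and in the deposited values (-0.043).

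Rbl1 encodes p107, the pocket protein of dividing cells, whose own gene is an E2F target. Its level was 0.40 and 0.53 with both factors, 1.34 and 1.40 with C/EBPalpha, 2.18 and 2.24 with IRF8, and 2.48 and 2.47 with empty vectors. The groups did not overlap, with both factors lowest and empty vectors highest. Rbl1 fell by 2.01 ± 0.05 with both factors (4.03-fold lower, adjusted p = 1.37e-12), by 1.11 ± 0.05 with C/EBPalpha (2.15-fold lower) and by 0.27 ± 0.05 with IRF8 (1.2-fold lower). It fell further with both factors than with either alone, by 0.90 ± 0.05 against C/EBPalpha and by 1.74 ± 0.05 against IRF8.

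Rbl2 encodes p130, the pocket protein of resting cells. Its level was -1.36 and -1.47 with both factors, -1.33 and -1.32 with C/EBPalpha, -1.15 and -1.10 with IRF8, and -1.12 and -1.28 with empty vectors. The ranges of the groups lay close to each other, and those of IRF8 and empty vectors overlapped. The change with both factors was -0.21 ± 0.09 (adjusted p = 0.0534), with a 95% confidence interval of -0.42 to -0.0051, and the adjusted p was 0.0417 without empty vector array 2 and 0.0411 without array 1 of both factors. The call depended on the scaling: Rbl2 fell with arrays scaled to their median (-0.87, adjusted p = 2.13e-07), with quantile normalization (-0.45) and in the deposited values (-0.45), while the change was 0.10 with the percentile over detected probes and 0.13 with normexp, neither past the threshold. Against IRF8 alone Rbl2 fell by 0.29 ± 0.09 (adjusted p = 0.013), but with adjusted p = 0.0729 without IRF8 array 2 and 0.0602 without array 2 of both factors, and the change was 0.034 with the percentile over detected probes and 0.043 with normexp.

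C/EBPalpha alone changed 6 of the 7 genes, with 4 rising and 2 falling, where 78.8% of all genes changed (31.6% rising and 47.2% falling). IRF8 alone also changed 6, with 5 rising and 1 falling, where 48.1% of all genes changed (22.7% rising and 25.4% falling). Both factors against C/EBPalpha alone changed 6, with 2 rising and 4 falling, where 72.4% of all genes changed (34.4% and 37.9%). Both factors against IRF8 alone changed all 7, with 3 rising and 4 falling, where 82.2% of all genes changed (36.1% and 46.1%). Among these 4 comparisons the members' share lay farthest above that of all genes with IRF8 alone, and that excess was not tested.

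The interaction term asks whether both factors together differ from the sum of the single-factor changes. It passed the test for 6 of 7 genes, positive for 1 and negative for 5, where 55.7% of all genes passed (23.8% positive and 31.9% negative). For Cdkn1a the single-factor changes sum to 1.29, and the change with both factors was 2.31, an interaction of 1.02 ± 0.04 (adjusted p = 1.08e-09). For Cdkn2d they sum to 0.29 against -0.92 observed, an interaction of -1.21 ± 0.05 (adjusted p = 1.48e-09), and for Cdkn2c they sum to -0.0047 against -0.92 observed (-0.92 ± 0.12, adjusted p = 3.3e-05). Both INK4 genes thus fell with both factors by more than the single-factor changes add up to.

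For Rbl1 the sum was -1.37 against -2.01 observed, an interaction of -0.64 ± 0.07 (adjusted p = 9.74e-06). For Rb1 the sum of 1.07 exceeded the 0.64 observed, an interaction of -0.42 ± 0.05 (adjusted p = 1.47e-05). For Cdkn1b the sum of 2.00 was near the 1.86 observed. Its interaction of -0.14 ± 0.05 (adjusted p = 0.0427) missed the threshold when any of 6 arrays was left out (either empty vector array, either IRF8 array, C/EBPalpha array 1 or array 2 of both factors), with -0.18 to -0.10 over the 8 arrays. It also missed it with the percentile over detected probes (-0.025), with quantile normalization (-0.0061), in the deposited values (0.023), without a filter on dim probes and without an intensity trend, and was -0.53 with arrays scaled to their median. For Rbl2 it was -0.17 ± 0.13 (adjusted p = 0.314, 95% confidence interval -0.46 to 0.13).

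**Figure D2:**
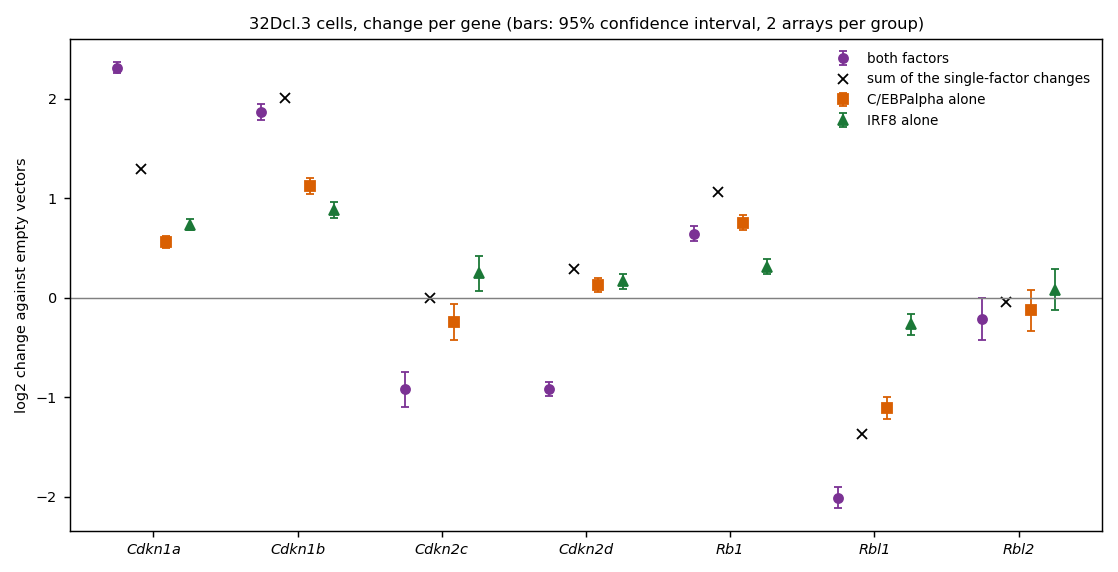
Change against empty vectors of the 7 genes kept in 32Dcl.3 cells, in log2 units, for both factors, the sum of the single-factor changes (crosses), C/EBPalpha alone and IRF8 alone, with 95% confidence intervals from limma. Cdkn1a with both factors (2.31) lies above the sum (1.29), while Cdkn2c, Cdkn2d and Rbl1 lie below it. Cdkn1b, at 1.86 against 2.00, lies close to it.

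Of the 14 probes, only Cdkn1a and Rbl1 had 2 that were measured in 32Dcl.3 cells, and the probes of each list different RefSeq transcripts. The brighter Cdkn1a probe was printed at 10 spots per array, whose coefficient of variation was 2.02 to 7.89%. The dimmer one (A_55_P1986282) was at 1.72 and 1.66 with both factors, 1.16 and 1.23 with C/EBPalpha, 0.85 and 0.90 with IRF8, and 0.60 and 0.51 with empty vectors. Both probes thus had the highest arrays with both factors and the lowest with empty vectors, but the single factors stood in opposite order. On the dimmer probe Cdkn1a rose by 1.14 ± 0.05 with both factors, and the interaction was 0.17 ± 0.07 (adjusted p = 0.0788 over 31783 probes), so the interaction of Cdkn1a was called on 1 of its 2 probes. With the mean of the 2 probes it was 0.60 and passed the test.

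The dimmer Rbl1 probe (A_55_P2024773) was at -4.21 and -3.67 with both factors, where it was not well above background, at -1.98 and -2.19 with C/EBPalpha, at -0.99 and -1.05 with IRF8, and at -0.84 and -0.85 with empty vectors. The order of the groups was that of the brighter probe. Because it is only a bound in 1 group, it was at least 7.92-fold lower with both factors than with empty vectors, taking the faintest probe well above background on each array as the floor. Its change with IRF8 was -0.18 ± 0.17 (adjusted p = 0.465).

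**Figure D3:**
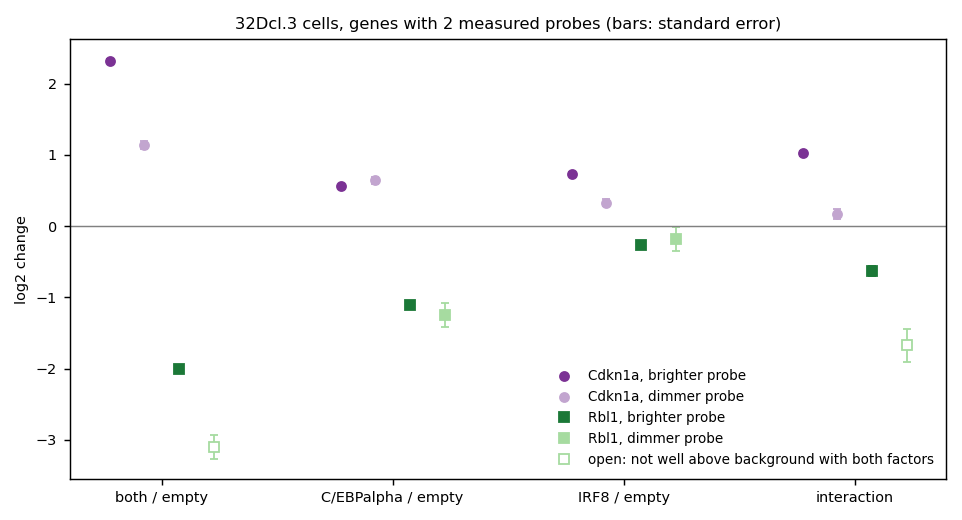
Change on each of the 2 probes of Cdkn1a (circles) and of Rbl1 (squares) in 32Dcl.3 cells, in log2 units with the standard error, for both factors, C/EBPalpha alone and IRF8 alone against empty vectors, and for the interaction. The Cdkn1a interaction is 1.02 on the brighter and 0.17 on the dimmer probe. Open squares stand for values in which the probe was not well above background with both factors.

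The genes that these inhibitors and pocket proteins act on fell together when both factors were expressed. Of 17 cyclin, CDK and CDC25 genes, 16 fell and none rose with both factors (median -2.00), 15 fell and none rose with C/EBPalpha (median -0.90), and 11 fell and none rose with IRF8 (median -0.17). The medians over all genes were -0.10, -0.14 and -0.03, and 46.8%, 47.2% and 25.4% of all genes fell. With both factors Ccna2, the S and G2 phase cyclin, fell by 3.13 ± 0.03. Ccnb1, a mitotic cyclin, fell by 2.77 ± 0.04, and Cdk1, the mitotic kinase, fell by 2.63 ± 0.04.

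Of the 10 E2F and DP genes, 9 fell with both factors (median -1.66), none rising. E2f7 fell by 3.04 ± 0.05 and E2f8 fell by 2.51 ± 0.04, which encode repressive E2Fs, and E2f1, an activator, fell by 2.52 ± 0.05. With C/EBPalpha 9 fell and 1 rose (median -0.89), and with IRF8 5 fell and none rose (median -0.13). All 15 DNA replication genes fell with both factors (median -2.36) and with C/EBPalpha (median -1.05), and 14 fell with IRF8 (median -0.23). Cdc6, which loads the replicative helicase, fell by 3.26 ± 0.06 with both factors, and Rrm2, a ribonucleotide reductase subunit, fell by 2.94 ± 0.04. All 13 mitosis genes fell with both factors (median -2.47) and with C/EBPalpha (median -0.87), and with IRF8 9 fell and 1 rose (median -0.14). Ccnb1 stands in 2 of these lists. For comparison, 46.8% of all genes fell with both factors, 47.2% with C/EBPalpha and 25.4% with IRF8.

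The pocket proteins p107 and p130 work with the MuvB core. The counts below are to be read against the shares of all genes. These were 46.8% falling and 38% rising with both factors, 47.2% and 31.6% with C/EBPalpha, and 25.4% and 22.7% with IRF8. Of 7 genes of that core and its partners, 5 fell and 2 rose with both factors (median -1.11). Foxm1 and Mybl2, whose products join MuvB at mitotic genes in dividing cells, changed by -3.02 ± 0.05 and -2.84 ± 0.03. The 2 that rose, named after their values were seen, were the core genes Lin37, by 0.51 ± 0.04, and Lin52, by 0.57 ± 0.04. With C/EBPalpha 5 fell and 1 rose, and with IRF8 4 fell and 2 rose. Of 12 genes listed under inhibitor turnover and silencing, not all of which act on the inhibitors directly, Skp2 had no probe and 9 were kept. All 9 fell with both factors (median -1.09) and with C/EBPalpha (median -0.94), and 4 fell and none rose with IRF8 (median -0.11). Myc, which represses Cdkn1a, fell by 3.44 ± 0.05 with both factors, and Cks1b, a cofactor of p27 degradation, fell by 2.21 ± 0.03. Bmi1 and Ezh2, Polycomb genes that silence the Cdkn2a locus, changed by -1.16 ± 0.05 and -1.75 ± 0.04.

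Cdkn1a is a p53 target, and other genes of that pathway were set beside it. Of 14 p53 pathway genes 13 were kept, and with both factors 10 rose and 2 fell (median 1.35). Trp53inp1, Btg2, Fas and Gadd45a rose by 3.40 ± 0.03, 3.06 ± 0.07, 2.94 ± 0.06 and 2.77 ± 0.07. The 2 that fell, named after their values were seen, were Trp53 itself, with a change of -1.69 ± 0.06, and Aen, with -0.80 ± 0.03. With C/EBPalpha 8 rose and 4 fell (median 0.39), and with IRF8 8 rose and 3 fell (median 0.32). Of all genes, 38% rose with both factors, 31.6% with C/EBPalpha and 22.7% with IRF8. These rises are relative to the rest of the array. The median of all genes was -0.10 with both factors and -0.14 with C/EBPalpha. With arrays scaled to their median it was -0.75 and -0.45, and whether the p53 pathway counts hold on that scale was not tested.

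**Figure D4:**
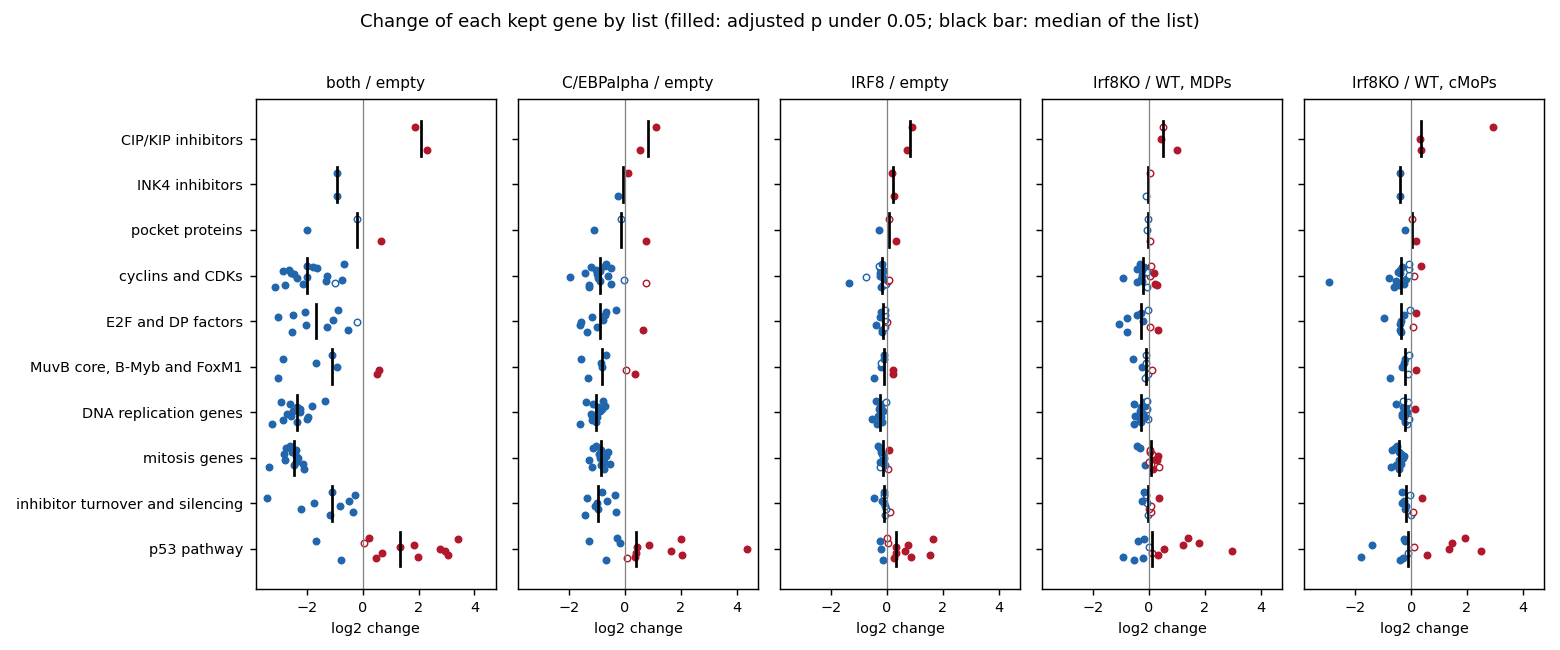
Change of each kept gene, in log2 units, by list, for both factors, C/EBPalpha and IRF8 against empty vectors in 32Dcl.3 cells and for Irf8KO against WT in MDPs and in cMoPs. Red points are higher and blue points lower, filled points have an adjusted p under 0.05, and black bars are list medians. The medians of DNA replication and mitosis genes with both factors lie at -2.36 and -2.47, and those of p53 pathway genes at 1.35.

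Genes of other cell types moved with the factors in the same cultures. The summed scaled signal of 9 late neutrophil genes was 1778 to 1784 with both factors, 3141 to 3185 with C/EBPalpha, 43.9 to 44.4 with IRF8 and 69.5 to 71.0 with empty vectors, with 8, 8, 7 and 7 of them well above background and Mmp9 in no group. Of the 8 late neutrophil genes kept, all rose with both factors and with C/EBPalpha, and with IRF8 6 fell and 1 rose. Among all genes 38% rose and 46.8% fell with both factors, 31.6% and 47.2% with C/EBPalpha, and 22.7% and 25.4% with IRF8. The summed signal of other lists was taken the same way. That of 8 basophil, mast cell and eosinophil markers was 5.29 to 5.34 with both factors, 19.8 to 20.1 with C/EBPalpha, 26.1 to 27.5 with IRF8 and 37.0 to 37.2 with empty vectors, and Ms4a2 was above background in none. Sums follow the brightest genes: with C/EBPalpha 3 of the 6 kept rose and 1, Gata2, fell (median 0.79), while with both factors none rose and 4 fell (median -1.52). That of 8 erythroid markers was 1.91 to 1.94 with both factors, 1.97 to 2.22 with C/EBPalpha, 2.76 to 2.78 with IRF8 and 8.77 to 8.95 with empty vectors, and Alas2 was above background in none. The B cell sums were 1.06 to 2.25 and the T and NK cell sums 15.8 to 37.8 over the 4 groups. The part of these shifts in the changes of the inhibitors and pocket proteins was not tested.

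The sorted progenitors address what these genes do without Irf8. In MDPs, Cdkn1a and Cdkn1b rose in Irf8KO cells and none of the 8 kept genes fell. Over all 11964 kept genes 51.4% changed (22.8% rising and 28.6% falling), so 2 of 8 is under the share of all genes. Cdkn1a was at 2.23 and 2.23 in Irf8KO MDPs against 1.30 and 1.18 in WT MDPs, a rise of 0.99 ± 0.07 (1.98-fold, adjusted p = 1.91e-06). Cdkn1b was at 3.27 and 3.32 in Irf8KO MDPs against 2.85 and 2.85 in WT MDPs, a rise of 0.44 ± 0.04 (1.36-fold, adjusted p = 1.96e-05). For both genes the Irf8KO arrays lay above both WT arrays.

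The other genes of MDPs did not pass the test. Cdkn2c was at 1.78 and 1.72 in Irf8KO MDPs against 1.94 and 1.78 in WT MDPs, a change of -0.11 ± 0.06 (adjusted p = 0.16), and Rbl1 was at 3.00 and 2.86 against 3.01 and 3.03 (-0.087 ± 0.050, adjusted p = 0.168). Cdkn2d changed by 0.033 ± 0.037 (95% confidence interval -0.048 to 0.11) and Rb1 by 0.030 ± 0.049 (-0.079 to 0.14). Rbl2 changed by -0.049 ± 0.16, with WT MDP arrays at -0.62 and -1.16 on either side of the Irf8KO arrays at -0.96 and -0.93. Without WT MDP array 2 the change was -0.19 for Cdkn2c (adjusted p = 0.0205) and -0.32 for Rbl2 (adjusted p = 0.0411), and without Irf8KO MDP array 1 it was -0.16 for Rbl1 (adjusted p = 0.0222). The dimmer Rbl1 probe fell by 0.44 ± 0.11 (adjusted p = 0.0122).

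In cMoPs, 7 of 8 genes passed the test, 4 rising and 3 falling, where 54.1% of all genes changed (22.9% rising and 31.1% falling). One of them, Cdkn1c, was kept only through Irf8KO cMoPs, and among the 7 genes detected on all 8 arrays 6 passed, 3 rising and 3 falling. Cdkn1a was at -0.44 and -0.38 in Irf8KO cMoPs against -0.77 and -0.76 in WT cMoPs, a rise of 0.35 ± 0.07 (1.28-fold, adjusted p = 0.00215). Cdkn1b was at 2.70 and 2.78 in Irf8KO cMoPs against 2.42 and 2.46 in WT cMoPs, a rise of 0.30 ± 0.04 (1.23-fold, adjusted p = 0.000221). Rb1 was at 1.80 and 1.87 in Irf8KO cMoPs against 1.64 and 1.65 in WT cMoPs, a rise of 0.19 ± 0.05 (adjusted p = 0.00797). The Irf8KO arrays were the higher ones for all 3 genes. Scaling to the array median shifted the median of all genes to -0.34, and there the changes were 0.039 for Cdkn1a, -0.014 for Cdkn1b and -0.13 for Rb1, none past the threshold. Rb1 also missed the threshold without WT cMoP array 1 (0.18, adjusted p = 0.0531) and without Irf8KO cMoP array 2 (0.15, adjusted p = 0.0757).

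Cdkn1c was well above background on the Irf8KO cMoP arrays and on no other of the 16 arrays. Its level was -1.35 and -1.42 in Irf8KO cMoPs against -5.06 and -3.53 in WT cMoPs, where it was not well above background. It was at least 3.46-fold higher in Irf8KO cMoPs (adjusted p = 0.000803). Since only that group brought it into the comparison, it had to differ.

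The INK4 genes and Rbl1 were lower in Irf8KO cMoPs. Cdkn2c was at 1.66 and 1.67 in Irf8KO cMoPs against 2.06 and 2.05 in WT cMoPs, a fall of 0.39 ± 0.06 (1.31-fold lower, adjusted p = 0.000333). Cdkn2d was at 3.13 and 3.15 in Irf8KO cMoPs against 3.56 and 3.53 in WT cMoPs, a fall of 0.40 ± 0.04 (1.32-fold lower, adjusted p = 5.77e-06). Rbl1 was at 2.62 and 2.62 in Irf8KO cMoPs against 2.83 and 2.82 in WT cMoPs, a fall of 0.21 ± 0.05 (1.16-fold lower, adjusted p = 0.00463). For these genes the groups did not overlap. On the dimmer Rbl1 probe the change was -0.31 ± 0.11 and missed the threshold (adjusted p = 0.0513 over 24951 probes). Rbl2 was at -0.12 and -0.21 against -0.19 and -0.16, and changed by 0.011 ± 0.16 (95% confidence interval -0.34 to 0.36).

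The 2 probes of Cdkn2b were not well above background on progenitor arrays, with a single exception. The probe A_55_P1979526 was at -0.26 on Irf8KO MDP array 2, where it was well above background, and at -4.43 on Irf8KO MDP array 1, where it was not. The other probe was at -4.07 on array 2 and not well above background, so 1 probe of 2 was high on 1 array.

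**Figure D5:**
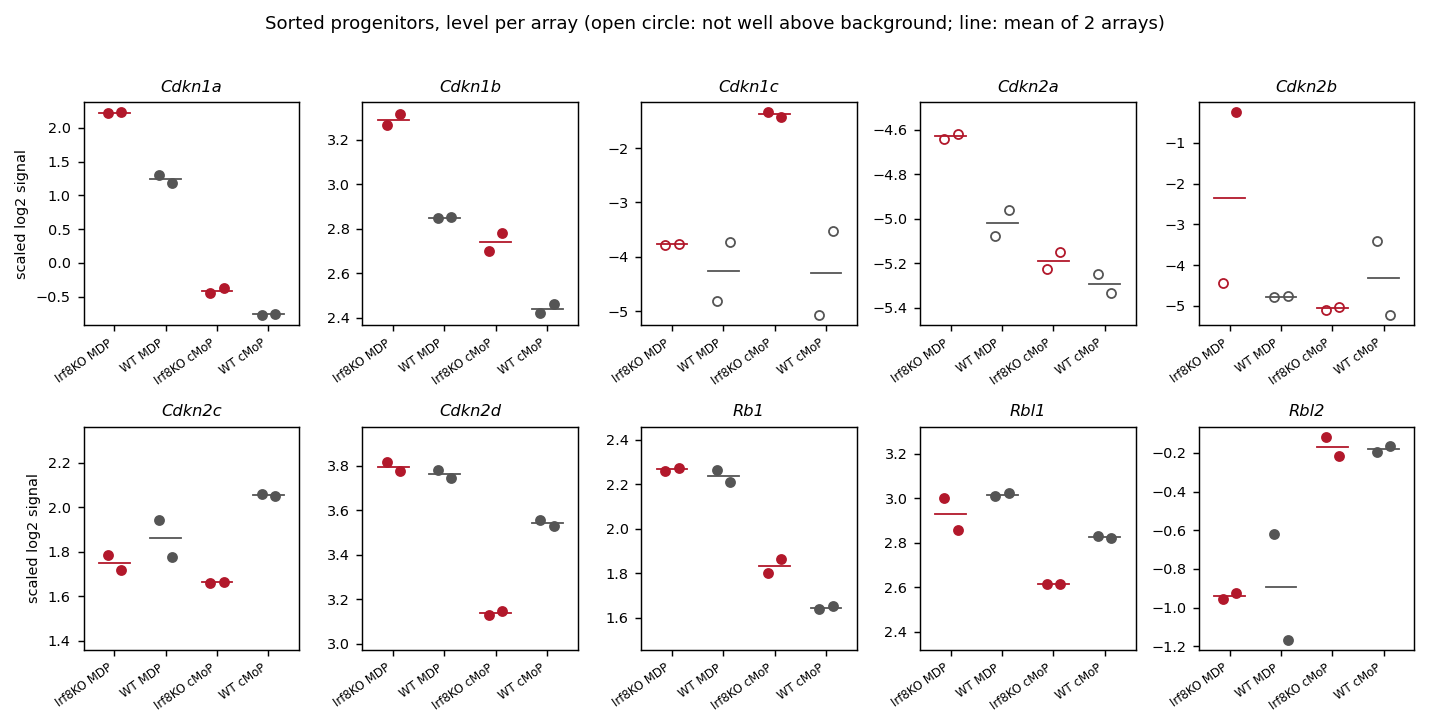
Level of each of the 10 genes on each array of the sorted progenitors, as log2 of processed signal over the array's 75th percentile, for Irf8KO MDPs, WT MDPs, Irf8KO cMoPs and WT cMoPs from left to right, with a scale of its own per gene. Filled circles are well above background, open circles are not, and lines are means of 2 arrays. Cdkn1a and Cdkn1b lie higher in Irf8KO cells of both kinds, and Cdkn2c, Cdkn2d and Rbl1 lie lower in Irf8KO cMoPs. MDPs and cMoPs were on different slides.

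Whether the Irf8KO effect differed between the progenitors was tested as the effect in cMoPs minus that in MDPs. It passed for 4 of 8 genes, positive for 1 and negative for 3, where 24.9% of all genes passed (11.6% positive and 13.3% negative). Among the 7 genes detected on all 8 arrays, which leave out Cdkn1c, 3 passed, all negative. The rise of Cdkn1a was smaller in cMoPs, with a difference of -0.63 ± 0.10 (adjusted p = 0.00148), and Cdkn2d differed by -0.44 ± 0.05 (adjusted p = 0.00019). The rises of Cdkn1b were not shown to differ (-0.14 ± 0.06, adjusted p = 0.133), though with arrays scaled to their median the difference passed (-0.36, adjusted p = 0.0138). The calls of Cdkn1c (2.41, adjusted p = 0.0374) and Cdkn2c (-0.28, adjusted p = 0.0397) were near the threshold. Cdkn1c lost its call without any of 6 arrays, either Irf8KO MDP array among them, with adjusted p up to 0.113, and its values were not well above background in 3 of the 4 groups. Cdkn2c lost its call without any of 6 arrays, all 4 cMoP arrays among them, with adjusted p up to 0.119. Rbl1 (-0.12, adjusted p = 0.232) passed without Irf8KO MDP array 2 (-0.20, adjusted p = 0.0479) and with arrays scaled to their median (-0.34, adjusted p = 0.0226). Its dimmer probe had the opposite sign, with a difference of 0.13 ± 0.15 (adjusted p = 0.62 over 24951 probes).

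The pathway lists moved less in the Irf8KO progenitors than the values printed for both factors in 32Dcl.3 cells, and the systems were not tested against each other. In Irf8KO cMoPs 11 of 16 cyclin and CDK genes fell and 1 rose (median -0.36), 6 of 9 E2F and DP genes fell and 1 rose (median -0.37), 10 of 15 replication genes fell and 1 rose (median -0.24), and all 13 mitosis genes fell (median -0.43). Ccnd1, a D-type cyclin, fell by 2.96 ± 0.06 and Foxm1 fell by 0.75 ± 0.07. Of all genes, 22.9% rose and 31.1% fell in Irf8KO cMoPs. The median of all genes was -0.025, and -0.34 with arrays scaled to their median. In Irf8KO MDPs 9 of 16 cyclin and CDK genes fell and 3 rose (median -0.22), 6 of 9 E2F and DP genes fell and 1 rose (median -0.29), 12 of 15 replication genes fell and none rose (median -0.29), and 4 of 13 mitosis genes rose and 3 fell (median 0.064). Of all genes, 22.8% rose and 28.6% fell in Irf8KO MDPs, so the counts of mitosis genes there are near the shares of all genes. Ccne1, the cyclin of S phase entry, fell by 0.93 ± 0.05 and E2f1 fell by 0.78 ± 0.04.

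Over all genes, 22.8% rose and 28.6% fell in Irf8KO MDPs, and 22.9% and 31.1% in Irf8KO cMoPs, and the counts that follow are to be read against these shares. Of 7 MuvB genes 2 fell and none rose in Irf8KO MDPs, and 4 fell and 1 rose in Irf8KO cMoPs. Of the 9 kept genes listed under inhibitor turnover and silencing, 2 fell and 1 rose in Irf8KO MDPs. In Irf8KO cMoPs 5 fell and 1 rose. The gene that rose was Myc in both, by 0.36 ± 0.04 in MDPs and 0.38 ± 0.04 in cMoPs. Of 13 p53 pathway genes 6 rose and 5 fell in Irf8KO MDPs (median 0.092), and 5 rose and 6 fell in Irf8KO cMoPs (median -0.11). Trp53inp1 rose by 1.40 ± 0.12 in Irf8KO MDPs and 1.91 ± 0.12 in Irf8KO cMoPs, and Pmaip1, a proapoptotic gene, by 1.80 ± 0.10 and 1.44 ± 0.10. Bbc3, another, fell by 1.80 ± 0.07 in Irf8KO cMoPs. The highest changes of the p53 list were in other genes, 2.98 in Irf8KO MDPs and 2.49 in Irf8KO cMoPs.

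Markers of other cells also moved with the genotype. The summed late neutrophil signal was 97.2 to 99.6 in Irf8KO MDPs against 9.75 to 11.7 in WT MDPs, and 582 to 604 in Irf8KO cMoPs against 36.7 to 36.8 in WT cMoPs, with 5 of 9 genes well above background in either MDP group. Of the 8 kept, 4 rose and 3 fell in Irf8KO MDPs (median 0.34, range -1.99 to 5.15), and all 8 rose in Irf8KO cMoPs (median 3.32). That of the erythroid markers was 0.666 to 0.671 in Irf8KO MDPs, where 0 of 8 were well above background, against 15.36 to 16.03 in WT MDPs with 4 to 5, and 1.03 to 1.14 in Irf8KO cMoPs against 8.27 to 8.35 in WT cMoPs. That of the basophil, mast cell and eosinophil markers was 3.87 to 4.22 in Irf8KO MDPs against 19.7 to 20.0 in WT MDPs, and 7.36 to 7.95 in Irf8KO cMoPs against 6.39 to 6.60 in WT cMoPs. Of the 7 kept, all fell in Irf8KO MDPs (median -3.16), and in Irf8KO cMoPs 4 fell and 2 rose (median -1.03), so the sum there ran against most of the list. That of the T and NK cell markers was 198 to 205 in Irf8KO MDPs against 156 to 158 in WT MDPs, and 121 to 125 in Irf8KO cMoPs against 61.6 to 62.3 in WT cMoPs. That of the B cell markers was 51.6 to 52.2 in Irf8KO MDPs against 36.6 to 37.5 in WT MDPs, and 15.7 to 15.8 in Irf8KO cMoPs against 15.3 to 15.6 in WT cMoPs. Alas2, Ms4a2, Mmp9 and Cd3g were above background in no progenitor group. Their part in the changes of the 8 genes was not tested.

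The direction of each gene can be set side by side in the factor-expressing line and the factor-deficient progenitors. Cdkn1a was higher with IRF8 in 32Dcl.3 cells (0.73) and also higher in Irf8KO MDPs (0.99) and Irf8KO cMoPs (0.35). Cdkn1b had changes of 0.88, 0.44 and 0.30 in the same order, and Rb1 of 0.31, 0.030 and 0.19. Cdkn2c had changes of 0.24, -0.11 and -0.39, Cdkn2d of 0.16, 0.033 and -0.40, and Rbl1 of -0.27, -0.087 and -0.21. Cdkn1a and Cdkn1b were thus higher both where IRF8 was added and where it was deleted, except in cMoPs with arrays scaled to their median (0.039 and -0.014, neither past the threshold). The cells, the slides and the reference groups differ between these comparisons.

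For each of the 7 genes kept in both systems, the 3 genes most alike in pattern were found among 11209 genes, by Pearson's r over the 16 arrays after the mean of each slide was subtracted. Arrays of a group count separately here, and the large 32Dcl.3 differences carry most of the variance, so r is a description. Cdkn1a was most like Hook2 (r = 0.990), Susd6 (0.981) and Cyld (0.979), and Cdkn1b most like Spata6 (0.996), Xaf1 (0.995) and Stat2 (0.990). Cdkn2c was most like Nsmce1 (0.984), Glud1 (0.970) and Trappc1 (0.970), and Cdkn2d most like Mxd3 (0.979), Cenpl (0.979) and Tuba1c (0.975). Rb1 was most like Msrb1 (0.993), Anxa1 (0.992) and Rab32 (0.990), and Rbl1 most like Mrpl57 (0.997), Sfpq (0.997) and Hnrnpa3 (0.996). Rbl2, whose changes were small, was most like Gm6787 at r = 0.893, a lower value than the others reached.

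Among themselves, over the same 16 centred values, Cdkn1a and Cdkn1b had r = 0.914, Cdkn2c and Cdkn2d 0.910, and Cdkn2c and Rbl1 0.898. Cdkn1b and Rbl1 ran opposite to each other, with r = -0.915, as did Cdkn1a and Rbl1, with -0.840. The CIP/KIP and INK4 genes ran opposite to each other, with r of -0.79 between Cdkn1a and Cdkn2c and -0.81 between Cdkn1a and Cdkn2d.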

How the data were processed

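RNA was measured on 16 one-colour Agilent arrays. Per the file headers, the deposited intensity values came from Agilent Feature Extraction 10.7.3.1 (protocol GE1_107_Sep09, array annotation on mm9), and the processed signal is background-subtracted. Spots with outlier marks and control spots were left out, repeated spots of a probe were averaged, and log2 of the signal minus log2 of the array's 75th percentile was used. Probes were named through RefSeq accessions, which gave 26762 probes with 1 symbol, 28919 with none and 0 with several. The brightest probe stood for a gene.

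limma 3.58.1 in R 4.3.3 (lmFit, eBayes with an intensity trend, two-sided) was fitted once to the 8 progenitor arrays and once to the 8 arrays of 32Dcl.3 cells. P-values were adjusted by Benjamini-Hochberg over 11964 and 13339 genes at 0.05, and every adjusted p in the report is limma's. Residual degrees of freedom were 4 in each fit. The fit was tested on simulated data. Replicate numbers did not pair arrays (correlation of deviations -0.025 to 0.071 in progenitors and -0.065 to 0.053 in 32Dcl.3 cells).

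The members and gene lists were chosen with earlier results of these data known. Named genes were all members, up to 4 genes of a list with the largest change past the threshold, and the 3 most alike genes per member. Alternatives were array-median scaling, a percentile over probes detected on all arrays, quantile normalization, normexp background, the deposited series values, no filter, a strict filter, the mean of probes, no trend, the replicate block, fits of the compared arrays only, and leaving out each array. The normexp alternative used the median spot signal, since the scanner output held no mean signal. The deposited series values are on a linear scale with column medians of 5.07 to 5.59 (MDPs), 40.4 to 54.2 (cMoPs) and 19.2 (32Dcl.3); no software is named for them in the sources.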

Additional observations from a re-analysis of the deposited data

Results flagged for a closer look

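The Irf8KO effect differed between cMoPs and MDPs for 4 of 8 kept genes, by limma's test of the difference (cMoPs minus MDPs). Over all kept genes 24.9% passed that test. The difference was -0.63 for Cdkn1a, 2.41 for Cdkn1c, -0.28 for Cdkn2c and -0.44 for Cdkn2d, and those of Cdkn1c and Cdkn2c did not hold without each of 6 arrays. The Cdkn1c value also rests on a probe that was not well above background in 3 of 4 groups. Cdkn1c was kept only through Irf8KO cMoPs, the group where it is high, so it had to differ and its call is no support. Without a filter on dim probes it missed the threshold (adjusted p = 0.121).

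The effect of one factor differed with the other present for 6 of 7 genes, by the interaction test, which 55.7% of all genes passed. The interaction was 1.02 for Cdkn1a, -0.14 for Cdkn1b, -0.92 for Cdkn2c, -1.21 for Cdkn2d, -0.42 for Rb1 and -0.64 for Rbl1. The value of Cdkn1a was 0.17 on its second probe, and that of Cdkn1b missed the threshold without any of 6 arrays.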

How the results depend on the processing

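Under array-median scaling, 54 of 66 member values kept their side of the threshold without a called value changing sign, but 5 of these, uncalled in both, did change sign. Another 6 gained a call, 1 lost it (Cdkn1a in cMoPs, 0.039) and 5 called values turned: Cdkn1b (-0.014) and Rb1 (-0.13) in cMoPs, Cdkn2d with C/EBPalpha (-0.18), and Rb1 with both factors against empty vectors (-0.013) and against IRF8 (-0.37). The percentile over detected probes turned Rbl2 with both factors against IRF8 (0.034), and normexp turned it too (0.043) along with Rbl2 with C/EBPalpha (0.14). The deposited values turned the Cdkn1b interaction (0.023). The cause was not tested. The number of genes changed in Irf8KO cMoPs was 4 under array-median scaling, and that for the difference between cMoPs and MDPs was 6 under array-median scaling, 5 with the deposited values, 3 among genes detected on all 8 arrays, 2 without a filter on dim probes and 2 without an intensity trend, against 4.

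Leaving out 1 array at a time, the genes changed numbered 2 to 4 in MDPs (4 without WT MDP array 2), 6 to 7 in cMoPs, 2 to 4 for their difference, 5 to 6 with C/EBPalpha, with IRF8, for the interaction and for both factors against C/EBPalpha, and 6 to 7 for both factors against empty vectors and against IRF8. With the replicate block all 66 values kept direction and call, with 2, 7 and 4 genes changed in the progenitor comparisons and 6 with both factors against empty vectors. Probes near background limit Cdkn1c, Cdkn2a and Cdkn2b.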

Other observations

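The dimmer Cdkn1a probe was well above background on 1 progenitor array, Irf8KO cMoP array 1, at -2.68.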
